A study of Mus musculus with 26 samples.

Results

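The messenger RNAs of the enzymes that make cholesterol and fatty acids, and of the proteins that control them, were followed in mouse embryonic stem cells and epiblast-like cells. The set was given as 34 gene symbols, and each gene took the value of its probe set with 1 gene symbol and the highest mean over all arrays. Of the 34 genes, 33 had such a probe set, out of 18193 genes in all. Acat2 had none and was not analysed here. The sterol arm has 17 measured enzymes, the fatty acid arm 11, and a further 5 genes encode regulators or a sterol carrier (Insig1, Srebf1, Srebf2, Scap and Stard4). All 33 lay above the level of the median gene in their mean over the arrays, the lowest being Acss2 at 6.36 against 6.21 for the median gene, and no filter on low values was applied.

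Affymetrix arrays were hybridised with RNA of C57BL/6 male cell lines, 26 arrays in 13 groups of 2. Stem cells grew on feeder layers of mouse embryonic fibroblasts (MEF). The genotypes were wild type, Prdm14 knockout (ESC-like cells in the labels), and the knockout with a pPyCAG-AGP14 transgene for Prdm14 fused to an Avitag and EGFP, called AGP14 below. Whether the 2 arrays of a group came from separate cultures is not said, and the p-values therefore reflect spread among arrays that may be technical. The number of arrays limits the precision of every value. The medium called 2i was N2B27 with the MEK inhibitor PD0325901 at 0.4 uM, the GSK3 inhibitor CHIR99021 at 3 uM and LIF at 1000 units per ml, and it held 0% serum. In the other media cells spent 2 days in 20% fetal bovine serum with LIF at 1000 units per ml (serum), the same without LIF, or serum and LIF with PD0325901 at 0.4 uM. Every genotype was grown in 2i and in serum with or without LIF, and wild type and knockout also in serum with the MEK inhibitor. Epiblast-like cells (EpiLC) were sampled on day 2 and on day 3, in a Prdm14 (+/+) background with Blimp1-mVenus and Stella-ECFP reporter transgenes (BVSC). The labels name no such reporters for the stem cells, so EpiLC and wild type differ in line as well as in state.

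Values are on a log2 scale whose base was inferred from the highest value in the table, 13.89, so every fold below rests on that base. A difference of 1 is a 2-fold change. A gene is said to have risen, fallen or been called when its adjusted p was under 0.05 in limma, with Benjamini-Hochberg adjustment over all 18193 genes.

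Sterol synthesis runs from acetyl-CoA through mevalonate and squalene to lanosterol and then cholesterol, while fatty acid synthesis turns acetyl-CoA into palmitate, which is then elongated and desaturated. Most of these genes are targets of the SREBP transcription factors, encoded by Srebf1 and Srebf2. When membranes hold little sterol, SCAP carries the SREBP precursor out of the endoplasmic reticulum to be cut and released to the nucleus. When sterol is plentiful, INSIG proteins keep SCAP and SREBP in place. SREBP binds sterol response elements in promoters, commonly next to a CCAAT box bound by the factor NF-Y. Serum brings lipoproteins and fatty acids to cultured cells, and N2B27 is a serum-free medium.

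Promoter letters are shown because most sterol enzymes were lower in serum media than in 2i. RefSeq promoters (GRCm38.p6), from 250 bases before to 50 bases after each gene start, were found for 26 of the 33 genes, 33 promoters in all. The core TCACNCCAC of a sterol response element and the CCAAT box, searched as ATTGG, were looked for on both strands. Only the 250 bases before the start were searched, and the shares below refer to them. The core stood in 1 of the 33 promoters (3.03%), that of Hmgcs1, and in 1.05% of all 32851 promoters. The CCAAT box stood in 14 of the 17 sterol arm promoters (82.4%), with at least 1 match for each of the 14 sterol genes found, and in 33.8% of all promoters. In the fatty acid arm 3 of 9 promoters held it (33.3%), and among the regulators 4 of 7 (57.1%). A core that runs straight into a CCAAT box can share a base with it, and a match describes the letters only.
In the 5 stretches printed here, each of 120 bases on the strand of its gene, capitals mark these matches. Hmgcs1 was chosen as the promoter with the core, and the other 4 after the matches were seen, as sterol genes with a CCAAT box and large differences between serum and 2i in wild type. They lie at chr13:119690158-119690277 (Hmgcs1, + strand), chr7:143830071-143830190 (Dhcr7, + strand), chr8:64733677-64733796 (Msmo1, - strand), chr9:42264301-42264420 (Sc5d, - strand) and chrX:8193621-8193740 (Ebp, - strand).
Hmgcs1: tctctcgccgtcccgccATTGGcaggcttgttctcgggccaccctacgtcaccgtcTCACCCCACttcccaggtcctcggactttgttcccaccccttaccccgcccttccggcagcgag
Dhcr7: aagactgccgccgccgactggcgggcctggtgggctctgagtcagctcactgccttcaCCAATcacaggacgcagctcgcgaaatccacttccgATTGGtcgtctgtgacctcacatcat
Msmo1: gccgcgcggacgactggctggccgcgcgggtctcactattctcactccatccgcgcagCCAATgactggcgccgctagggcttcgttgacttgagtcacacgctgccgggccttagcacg
Sc5d: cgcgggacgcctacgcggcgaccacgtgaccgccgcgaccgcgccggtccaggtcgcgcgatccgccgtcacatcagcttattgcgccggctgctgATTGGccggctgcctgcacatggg
Ebp: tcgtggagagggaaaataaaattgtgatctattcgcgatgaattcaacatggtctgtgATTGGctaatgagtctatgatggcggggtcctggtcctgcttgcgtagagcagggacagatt
In Hmgcs1, the enzyme that joins acetyl-CoA units on the way to mevalonate, the core began 137 bases before the gene start and a CCAAT box 176 bases before it. Dhcr7, the reductase of the last step to cholesterol, held CCAAT boxes on opposite strands that began 85 and 49 bases before the start.

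Several facts of the whole series touch the results. The poly-A controls added to the RNA split the arrays into a pair of spike-in sets. The control AFFX-LysX-5 read 13.29 to 13.49 on 12 arrays of 6 groups (wild type and labelled knockout in 2i and in serum with MEK inhibitor, and EpiLC) and 6.42 to 6.94 on the other 14 arrays of 7 groups (all AGP14, all serum and all serum without LIF). The difference between the 3' and 5' probe sets of actin, a sign of RNA or labelling quality, was 0.18 to 0.33 in the first set and 0.52 to 0.63 in the second. Serum against 2i in wild type and labelled knockout, MEK inhibitor against plain serum, and AGP14 against the other genotypes in 2i therefore compare across sets, and there set and group cannot be told apart. Feeder cells also moved with the medium: the mean level of 24 measured fibroblast markers of 25 listed was 8.18 to 8.74 on arrays in 2i, 6.48 to 6.97 in serum, 6.42 to 7.24 without LIF, 7.41 to 7.69 in serum with MEK inhibitor and 5.49 to 5.82 in EpiLC, and none was at 0. The stem cell marker Pou5f1 was high in every group, and Fgf5, a marker of the epiblast state, read 9.66 ± 0.05 in EpiLC of day 2 against 3.42 ± 0.54 in wild type in 2i (mean ± SD, n = 2). Prdm14 itself read 11.28 ± 0.06 on the arrays labelled knockout in 2i and 9.18 ± 0.32 on wild-type arrays, a rise of 2.11 (adjusted p = 0.00268, limma), and in serum the difference was -0.70 (adjusted p = 0.389). In limma it was 1.48 with MEK inhibitor (adjusted p = 0.0491) and -1.10 without LIF (adjusted p = 0.153). AGP14 minus labelled knockout was -2.08 in 2i (adjusted p = 0.001), 0.44 in serum (adjusted p = 0.593) and 1.36 without LIF (adjusted p = 0.0326). Prdm14 was not called between AGP14 and wild type in any medium. Whether the Prdm14 probe set lies in the deleted part is unknown here, so the genotype is named below as the labels give it.

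Over the 13 groups, the sterol arm was high in 2i and in EpiLC and low in each serum medium. Its mean over 17 genes was 9.82 and 9.85 on the wild-type arrays in 2i, 8.76 and 8.77 in serum, 8.90 and 8.88 in serum without LIF, and 8.94 and 8.92 in serum with MEK inhibitor. On the EpiLC arrays it was 9.92 and 9.89 at day 2 and 9.58 and 9.56 at day 3. Every array in 2i or of EpiLC stood above every array in a serum medium. The fatty acid arm followed the media in a partly different order. Its mean over 11 genes was 10.31 and 10.19 in wild type in 2i, 9.20 and 9.05 in serum, 9.35 and 9.19 without LIF, 9.62 and 9.46 with MEK inhibitor, and 9.93 and 9.96 in EpiLC of day 2. EpiLC thus lay below wild type in 2i in this arm. The serum media of wild type ranked alike in both arms, with MEK inhibitor highest and plain serum lowest. On arrays labelled knockout, MEK inhibitor lay below serum in the sterol arm (means 8.85 and 9.00) and above it in the fatty acid arm (9.38 and 9.19). These arm means describe the genes together and carry no test. In RNA of whole cultures, fewer cells of a type and less RNA per cell cannot be told apart.

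**Figure D1:**
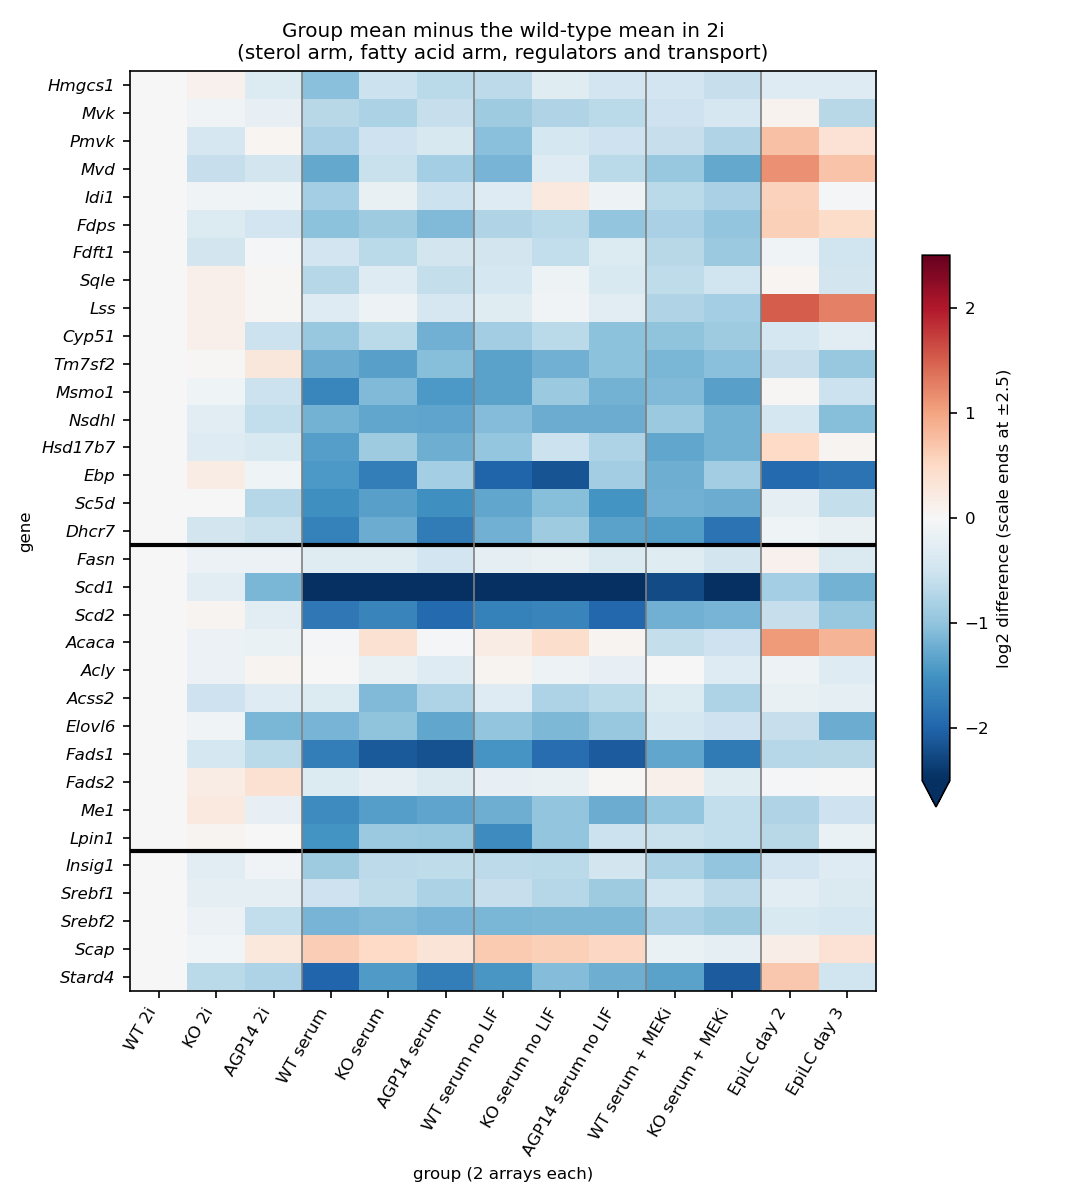
Group means of the 33 genes minus the wild-type mean in 2i, on the log2 scale, for the 13 groups (columns, 2 arrays each; KO stands for arrays labelled knockout, MEKi for PD0325901), with blue lower and red higher. The serum columns are mostly blue, Scd1 lies beyond the end of the scale in several of them, and Lss, Mvd and Acaca are red in EpiLC.

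**Figure D2:**
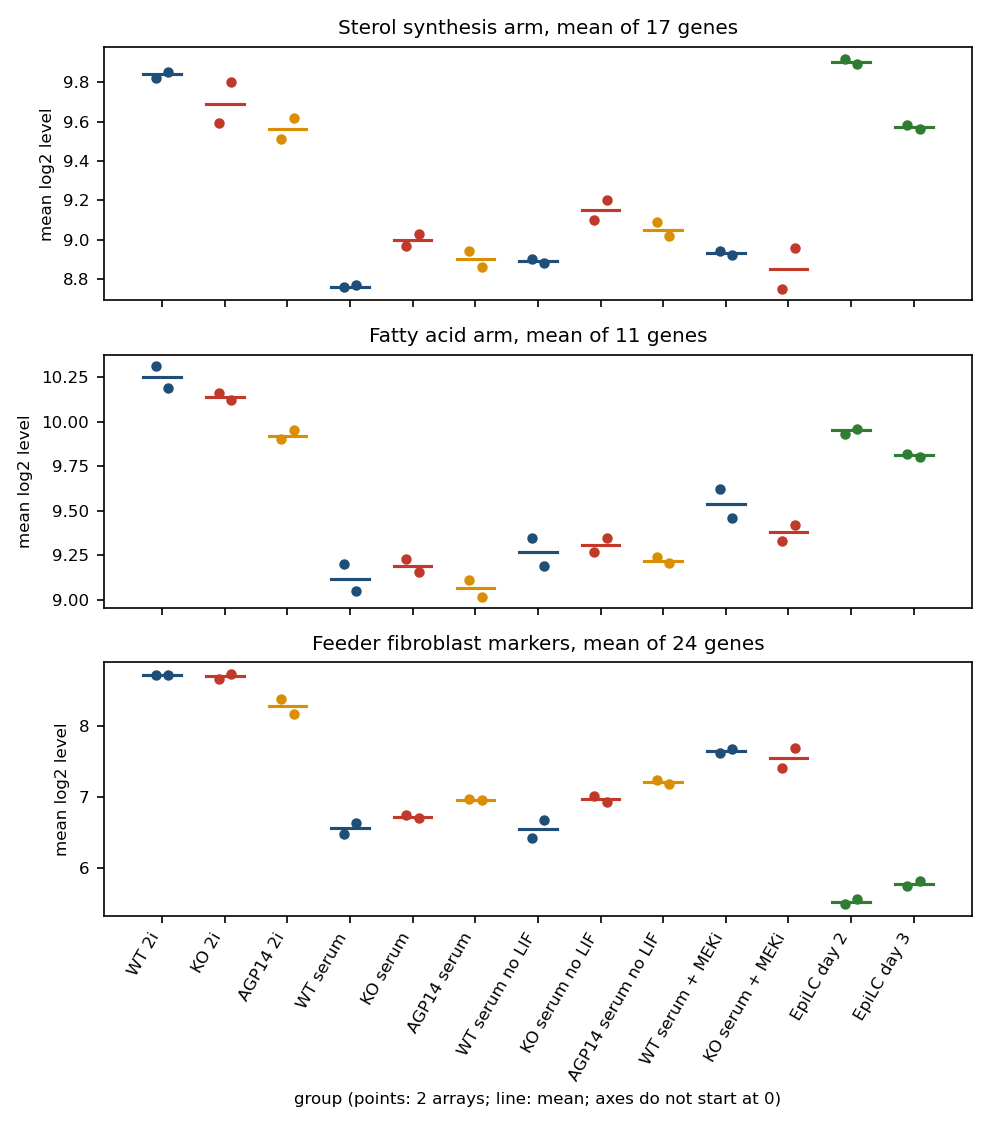
Mean log2 level of the sterol arm (17 genes), the fatty acid arm (11 genes) and the feeder fibroblast markers (24 genes) on each array (points) with the group mean (line). The sterol arm is high in 2i and EpiLC, while feeder markers are highest in 2i and lowest in EpiLC.

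The range between the lowest and the highest group mean ordered the genes by how far they moved. Scd1, a stearoyl-CoA desaturase that makes oleate, had the widest range, 3.61, followed by Stard4 with 2.75, Mvd with 2.43, Lss with 2.37 and Ebp with 2.33. At the other end were Acly with 0.41, Fasn with 0.58, Fads2 with 0.74 and Sqle with 0.84, so Acly and Fasn, which make acetyl-CoA and palmitate, varied little, while the ranges of Scd2 and Fads1 were 2.04 and 2.18. The typical SD between the 2 arrays of a group was 0.06 for Scd1, 0.07 for Stard4 and 0.06 for Fasn and Acly. The highest group was wild type in 2i for 11 genes that include Scd1, Dhcr7, Srebf1 and Srebf2, and EpiLC of day 2 for 11 that include Mvd, Lss, Idi1 and Stard4.

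How far a serum medium differed from 2i could be asked within 1 spike-in set in 3 comparisons: serum with MEK inhibitor in wild type and in labelled knockout, and serum in AGP14. These comparisons share no arrays. In each, most sterol enzymes and the desaturases Scd1, Scd2 and Fads1 were lower than in 2i. In wild type, serum with MEK inhibitor had 28 of the 33 genes lower and 0 higher (84.8%), and 12.5% of all genes were called, 7.06% as lower. The median difference was -0.80 over the 33 genes and -0.02 over all genes. In labelled knockout 26 genes were lower and 0 higher (78.8%; all genes 13.2%, 6.59% lower), with a median of -0.72. In AGP14, serum against 2i had 28 lower and 0 higher (84.8%; all genes 18.2%, 8.22% lower), with a median of -0.62. There were 23 genes lower in all 3 comparisons, 69.7% of the 33 against 2.68% of all genes. The same fits with only the arrays of the spike-in set gave 26, 23 and 28 genes lower and 0 higher.

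In the sterol arm all 17 enzymes were lower in wild type, 15 in labelled knockout and 16 in AGP14. Dhcr7 read 10.09 and 9.79 on wild-type arrays in 2i and 8.62 and 8.45 in serum with MEK inhibitor. On the arrays labelled knockout it read 9.36 and 9.59 against 7.98 and 8.23, and on AGP14 arrays 9.29 and 9.46 in 2i against 8.25 and 8.13 in serum. The arrays did not overlap in any of these, and Dhcr7 fell by 1.40 (SE 0.15, adjusted p = 6.83e-06), 1.37 and 1.18, that is 2.65-fold, 2.58-fold and 2.27-fold. Sc5d, the sterol desaturase that acts just before Dhcr7, fell by 1.20, 1.25 and 0.80. Msmo1, the methylsterol oxidase, read 11.65 and 11.71 in wild type in 2i and 10.52 and 10.62 in serum with MEK inhibitor, and fell by 1.11, 1.26 and 0.88. Tm7sf2, a sterol reductase, fell by 1.16, 1.07 and 1.35. The isomerase Ebp fell by 1.22, 1.04 and 0.74, although its wild-type arrays in 2i, 9.49 and 10.10, lay further apart than most.

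Most enzymes that act before lanosterol were lower too. Hmgcs1 read 12.12 and 12.43 in wild type in 2i and 11.77 and 11.83 in serum with MEK inhibitor, a fall of 0.48 (SE 0.07, adjusted p = 0.000179). Its falls were 0.68 in labelled knockout and 0.32 in AGP14. Mvk, Pmvk and Mvd, which phosphorylate and decarboxylate mevalonate, fell by 0.51, 0.57 and 0.96 in wild type. In labelled knockout Mvd fell by 0.70, while Mvk at -0.33 and Pmvk at -0.35 were not called. In AGP14 Mvk and Pmvk fell by 0.38 and 0.44 and Mvd at -0.40 was not called. Sqle, the squalene epoxidase and a slow step of the pathway, fell by 0.63, 0.62 and 0.62. For Fdps, which makes farnesyl diphosphate, and Fdft1 the mean over all probe sets of the gene ended the call in wild type (-0.39 and -0.35) and labelled knockout (-0.41 and -0.20).

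In the fatty acid arm the desaturases Scd1, Scd2 and Fads1 fell in all 3 comparisons, and the enzymes that make palmitate fell little or not at all. Scd1 read 11.86 and 11.90 on wild-type arrays in 2i and 9.60 and 9.68 in serum with MEK inhibitor. It read 11.64 and 11.60 against 9.18 and 9.48 in labelled knockout, and 10.65 and 10.82 against 8.54 and 8.47 in AGP14. No serum array came near a 2i array: Scd1 fell by 2.24 (SE 0.09, adjusted p = 6.83e-11), 2.29 and 2.23, or 4.72-fold, 4.89-fold and 4.69-fold. A further Scd1 probe set gave -1.76, -1.96 and -2.28. Scd2, the desaturase of the same family that is abundant in embryonic and neural tissue, fell by 1.20, 1.23 and 1.66. Fads1, which desaturates polyunsaturated fatty acids, fell by 1.29, 1.33 and 1.50, and Me1, the malic enzyme that supplies NADPH, by 0.96, 0.86 and 1.12. Fasn, the synthase that builds palmitate, fell by 0.31, 0.31 and 0.33, and with only the arrays of the spike-in set it was no longer called in wild type or labelled knockout. Acaca, the acetyl-CoA carboxylase that feeds it, fell by 0.59 in wild type and was not called at -0.38 and 0.10. Acly, which makes acetyl-CoA from citrate, fell by 0.39 in AGP14 and was not called at -0.01 and -0.18 in the others. Fads2, the partner of Fads1, fell by 0.74 in AGP14 and was not called at 0.12 and -0.49. Acss2, which makes acetyl-CoA from acetate, was called in none of the 3 (-0.34, -0.25 and -0.44). Elovl6, the elongase that extends palmitate, fell by 0.43 and 0.42 and stood at -0.14 in AGP14. In 2i it read 10.38 and 10.19 on AGP14 arrays and 11.48 and 11.38 on wild-type arrays, which lie in different spike-in sets.

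Among the regulators, Srebf2 fell by 0.81 (SE 0.07, adjusted p = 9.54e-07), 0.74 and 0.56, and Srebf1 by 0.49, 0.44 and 0.57. Srebf2 read 10.09 and 10.01 in wild type in 2i and 9.26 and 9.22 in serum with MEK inhibitor, with no overlap. Insig1, itself an SREBP target, fell by 0.80, 0.72 and 0.55. Scap did not pass the test, at -0.16, -0.16 and 0.06. Stard4, a soluble carrier of sterol between membranes, read 9.29 and 9.25 in wild type in 2i against 8.04 and 7.85, and fell by 1.32, 1.42 and 0.95. The feeder markers fell in these comparisons too, 16 of 24 in wild type (median -1.26), 15 in labelled knockout (-1.45) and 16 in AGP14 (-1.12), with 2, 1 and 1 higher. Their part in the falls of the lipid genes was not tested.

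**Figure D3:**
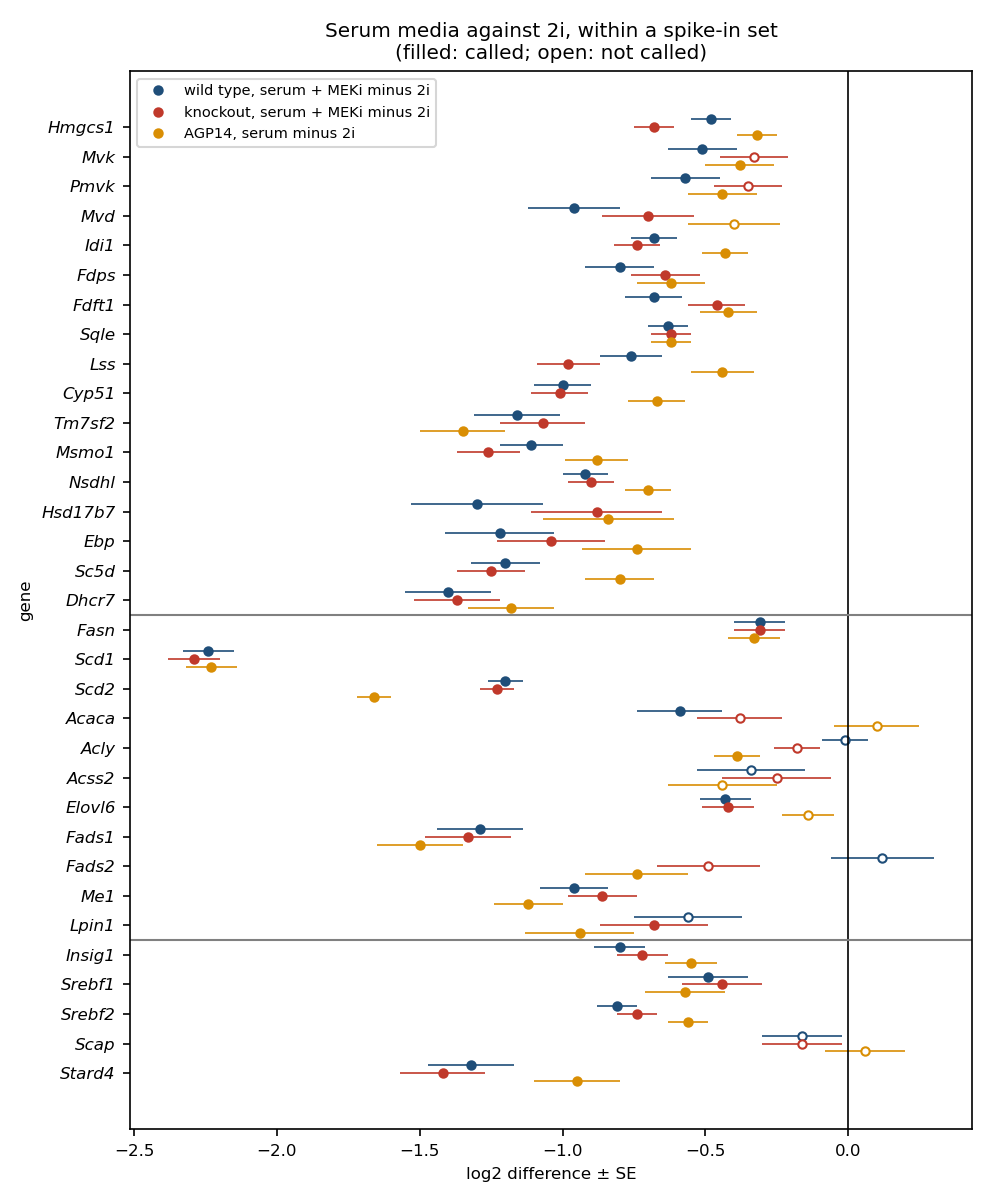
Log2 difference with its standard error for each of the 33 genes in the 3 comparisons whose groups lie in 1 spike-in set, with filled points for called genes and open points for the rest. Nearly all points lie below 0 and Scd1 lies near -2.2. Scap and Acss2 are open throughout, and Acly is filled in AGP14 only.

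Plain serum against 2i in wild type and labelled knockout crosses the spike-in sets. There 28 of 33 genes were lower and 1 higher in wild type (87.9% called; all genes 34.6%, 19.4% lower), and 22 lower and 2 higher in labelled knockout (72.7%; all genes 35.8%, 20.0% lower). Of the 9096 genes above the median level, fitted alone, 5138 and 5296 were called. The medians of the 33 were -1.05 and -0.64. Scd1 read 8.31 and 8.23 in wild-type serum and fell by 3.61, a 12.2-fold change. Stard4 read 7.25 and 7.31 and fell by 1.99. Acaca was higher in labelled knockout by 0.52. Scap was higher by 0.63 and 0.57 in these comparisons, and with the mean over its probe sets the values were -0.06 and 0.11, of which neither was called. Feeder markers were lower for 18 of 24 in either genotype (medians -1.99 and -1.82).

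Adding the MEK inhibitor to serum, in a comparison that also crosses the spike-in sets, moved genes of either arm both ways. In wild type 11 genes were higher and 3 lower (42.4%; all genes 25.4%, 14.3% higher and 11.2% lower). In the fatty acid arm 6 of 11 were higher and 1 lower, and in the sterol arm 3 of 17 were higher and 1 lower. In labelled knockout 7 were higher and 8 lower (45.5%; all genes 24.5%, 15.0% higher and 9.56% lower), with 4 of 11 fatty acid genes higher and 1 lower, and 2 of 17 sterol genes higher and 4 lower. The difference between the arms was not tested. Higher in both genotypes were Scd1 (1.37 and 0.54), Scd2 (0.58 and 0.50), Elovl6 (0.74 and 0.48), Me1 (0.62 and 0.76) and Srebf2 (0.36 and 0.22). Lower in both were Lss (-0.44 and -0.72), the cyclase that makes lanosterol, Acaca (-0.56 and -0.90) and Scap (-0.80 and -0.74). A further Scd1 probe set gave 0.73 in wild type and -0.33 in labelled knockout, and the mean over probe sets gave 0.01 for Lss and Scap in wild type and 0.05 for Scap in labelled knockout. Feeder markers were higher for 19 of 24 in wild type (median 0.96) and 16 in labelled knockout (0.68), and their part was not tested.

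Stard4 moved in opposite ways with the inhibitor. It read 7.25 and 7.31 in wild-type serum and 8.04 and 7.85 with inhibitor, a rise of 0.66 (adjusted p = 0.00358, limma). On the arrays labelled knockout it read 7.91 and 7.80 and then 6.93 and 7.45, a fall of 0.66 (adjusted p = 0.00372, limma). Without replicate 1 of labelled knockout with inhibitor this fall was no longer called, at -0.41, and the mean over probe sets ended the wild-type call, at 0.38. Idi1, the isomerase that supplies the isoprenoid starter unit, fell by 0.62 in labelled knockout, where it read 10.41 and 10.34 in serum and 9.67 and 9.83 with inhibitor. In wild type it stood at 9.72 and 9.71 and then 9.82 and 9.94, and was not called. Ebp rose by 0.86 and Mvk by 0.38 in labelled knockout, and Mvd and Dhcr7 fell there by 0.73 and 0.58.

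LIF withdrawal was compared with all arrays in 1 spike-in set. Without a block for the replicate number it called 2 of 33 genes in wild type, both higher (6.06%; all genes 1.5%, 0.33% higher and 1.17% lower), 1 in labelled knockout (3.03%; 1.1%, 0.269% higher) and 1 in AGP14 (3.03%; 0.302%, 0.115% higher). With the replicate number within each line as a block, the counts were 10 (all genes 6.43%), 5 (4.49%) and 4 (3.47%). Without the block, 367, 251 and 59 of the 9096 genes above the median level were called when fitted alone. Idi1 rose in all 3 genotypes. It read 9.72 and 9.71 in wild type with LIF and 10.22 and 10.27 without, 10.41 and 10.34 against 10.87 and 10.73 in labelled knockout, and 10.08 and 9.97 against 10.50 and 10.37 in AGP14. In each genotype both arrays without LIF stood above both with LIF, and the rises were 0.53 (SE 0.08, adjusted p = 0.00292), 0.42 (adjusted p = 0.0132) and 0.41 (adjusted p = 0.0449) in limma. Hmgcs1 rose by 0.40 in wild type. Leaving out any of 4 arrays in AGP14, or 3 of 4 in labelled knockout (replicate 1 without LIF or either replicate with LIF), ended the Idi1 call there, with values of 0.34 to 0.47 and 0.35 to 0.46. The Hmgcs1 call ended without replicate 1 lacking LIF (0.40) or replicate 2 with LIF (0.41).

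**Figure D4:**
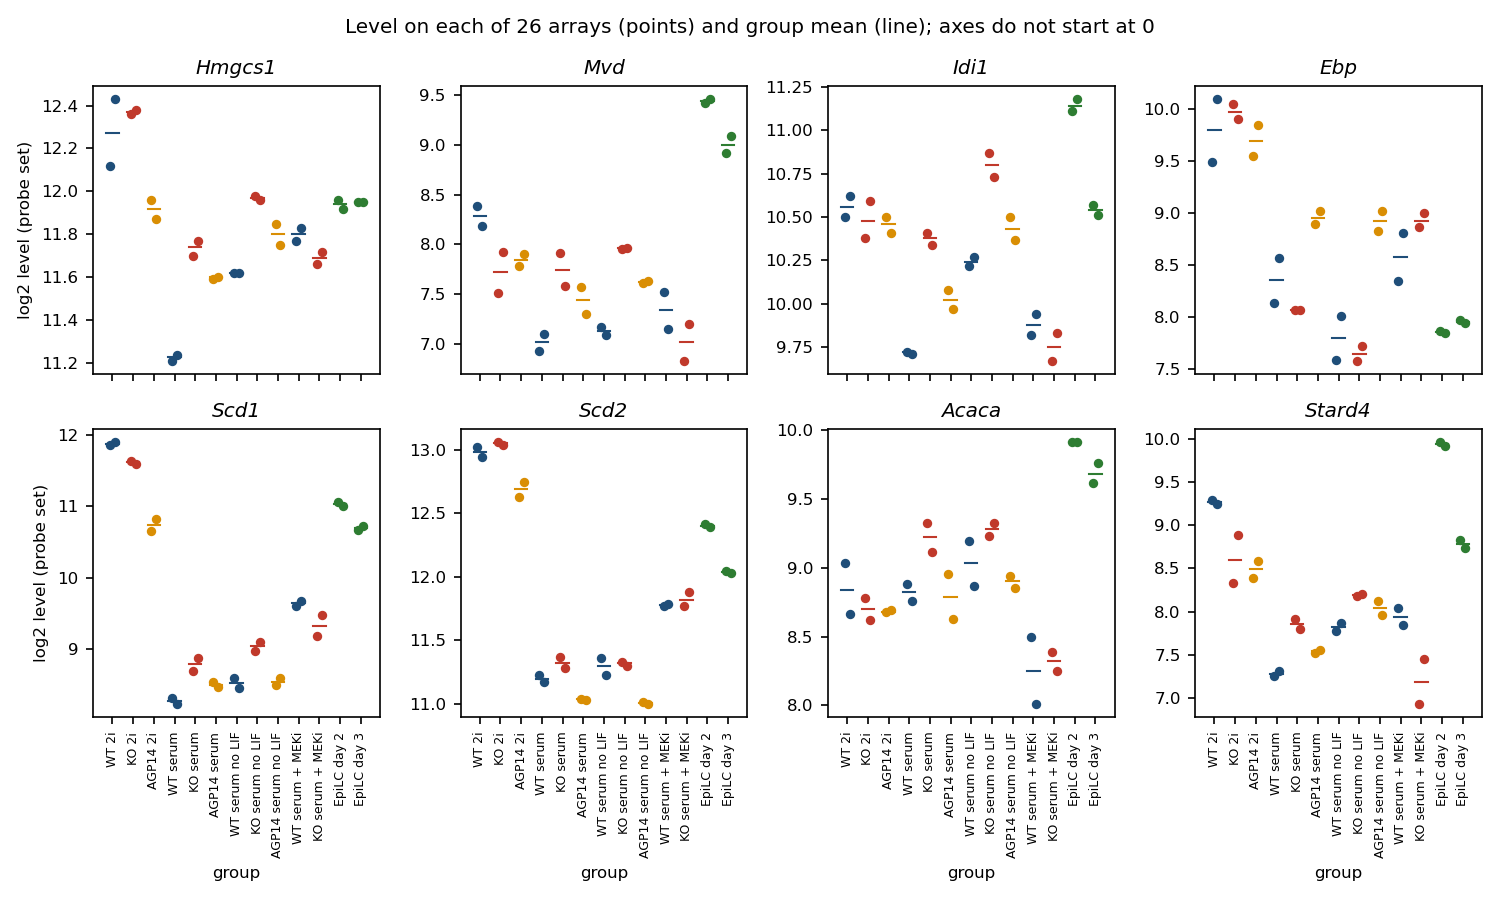
Log2 level of 8 genes on each of the 26 arrays (points) with the group mean (line), coloured by genotype, where KO stands for arrays labelled knockout. Scd1 and Scd2 are high in 2i, Mvd, Acaca and Stard4 are highest in EpiLC of day 2, and Mvd, Idi1 and Hmgcs1 lie lower in wild type than in labelled knockout in serum.

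Labelled knockout against wild type, compared within each medium and within 1 spike-in set, went in different directions by medium. In serum the labelled knockout had 7 genes higher and 1 lower (24.2%; all genes 4.17%, 1.39% higher and 2.79% lower), and the median was 0.18 against -0.02 over all genes. Without LIF 7 were higher and 0 lower (21.2%; all genes 4.19%, 1.75% higher and 2.44% lower; median 0.14). In 2i 0 were higher and 5 lower (15.2%; all genes 9.15%, 3.63% higher and 5.52% lower; median -0.14), and in serum with MEK inhibitor 0 were higher and 2 lower (6.06%; all genes 4.08%, 1.86% higher and 2.22% lower; median -0.13). At an unadjusted p under 0.05 the counts in this order were 18, 14, 12 and 12 of the 33, and the shares of all genes were 18.5%, 17.5%, 21.3% and 14.9%. Of the 9096 genes above the median level, fitted alone, 919, 887, 1698 and 816 were called in the same order. The median difference of the feeder markers had the same sign as that of the lipid genes in each medium. In serum 1 marker was called higher and 1 lower (median 0.19), and 9 of 24 were higher on both arrays labelled knockout than on either wild-type array (all genes 19.8%). Without LIF 2 were called higher (median 0.43), and 15 of 24 were higher without overlap (all genes 21.3%). In limma 0 were called in 2i (median -0.06) or with MEK inhibitor (-0.14). The part of feeder RNA in the genotype differences was not tested.

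Higher in labelled knockout with and without LIF were 6 genes: Hmgcs1, Mvd, Idi1, Sqle, Msmo1 and Scd1. They make up 18.2% of the 33, and 0.759% of all genes were higher in both. Idi1 read 9.72 and 9.71 on wild-type arrays in serum against 10.41 and 10.34 in labelled knockout, and 10.22 and 10.27 against 10.87 and 10.73 without LIF. The arrays of the genotypes stood well apart, with rises of 0.66 (SE 0.08, adjusted p = 0.000171) and 0.56 (adjusted p = 0.000686). Mvd read 6.93 and 7.10 against 7.91 and 7.58 in serum and 7.17 and 7.09 against 7.95 and 7.96 without LIF, rises of 0.73 (SE 0.16, adjusted p = 0.0140) and 0.82 (adjusted p = 0.00646). Hmgcs1 read 11.21 and 11.24 against 11.70 and 11.77 in serum, and rose by 0.51 and by 0.35 without LIF. Scd1 rose by 0.52 and 0.51, Msmo1 by 0.52 and 0.42, and Sqle by 0.38 and 0.30. A further Scd1 probe set gave 0.68 and 0.71. Stard4 rose by 0.57 in serum and stood at 0.36 without LIF, and Pmvk rose by 0.60 without LIF and stood at 0.29 in serum. Acss2 was the only gene lower in serum, by 0.76, in arrays that read 6.74 and 6.26 against 5.58 and 5.91.

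These counts fell whichever array was left out, and so did the counts of all genes. In serum the count was 4 without any of labelled knockout replicate 1, labelled knockout replicate 2 or wild-type replicate 1, and 5 without wild-type replicate 2. Without LIF it was 4 without labelled knockout replicate 1 and 3 without labelled knockout replicate 2 or wild-type replicate 1. Hmgcs1 and Idi1 were called in serum, and Mvd and Idi1 without LIF, whichever array was left out.

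In 2i the lower genes were Pmvk (-0.41), Mvd (-0.57), Fdft1 (-0.46), the squalene synthase, Nsdhl (-0.28), which removes sterol methyl groups, and Stard4 (-0.66). Stard4 read 9.29 and 9.25 in wild type against 8.33 and 8.88 in labelled knockout. Mvd read 8.39 and 8.19 against 7.51 and 7.92, so the arrays labelled knockout lay below but apart from each other. None of the 5 calls held with only the arrays of the spike-in set, and none without labelled knockout replicate 1 or without wild-type replicate 1, while 8 genes were called without wild-type replicate 2. In serum with MEK inhibitor Stard4 (-0.76) and Acly (-0.32) were lower, and neither call held with only the arrays of the set or without wild-type replicate 1.

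**Figure D5:**
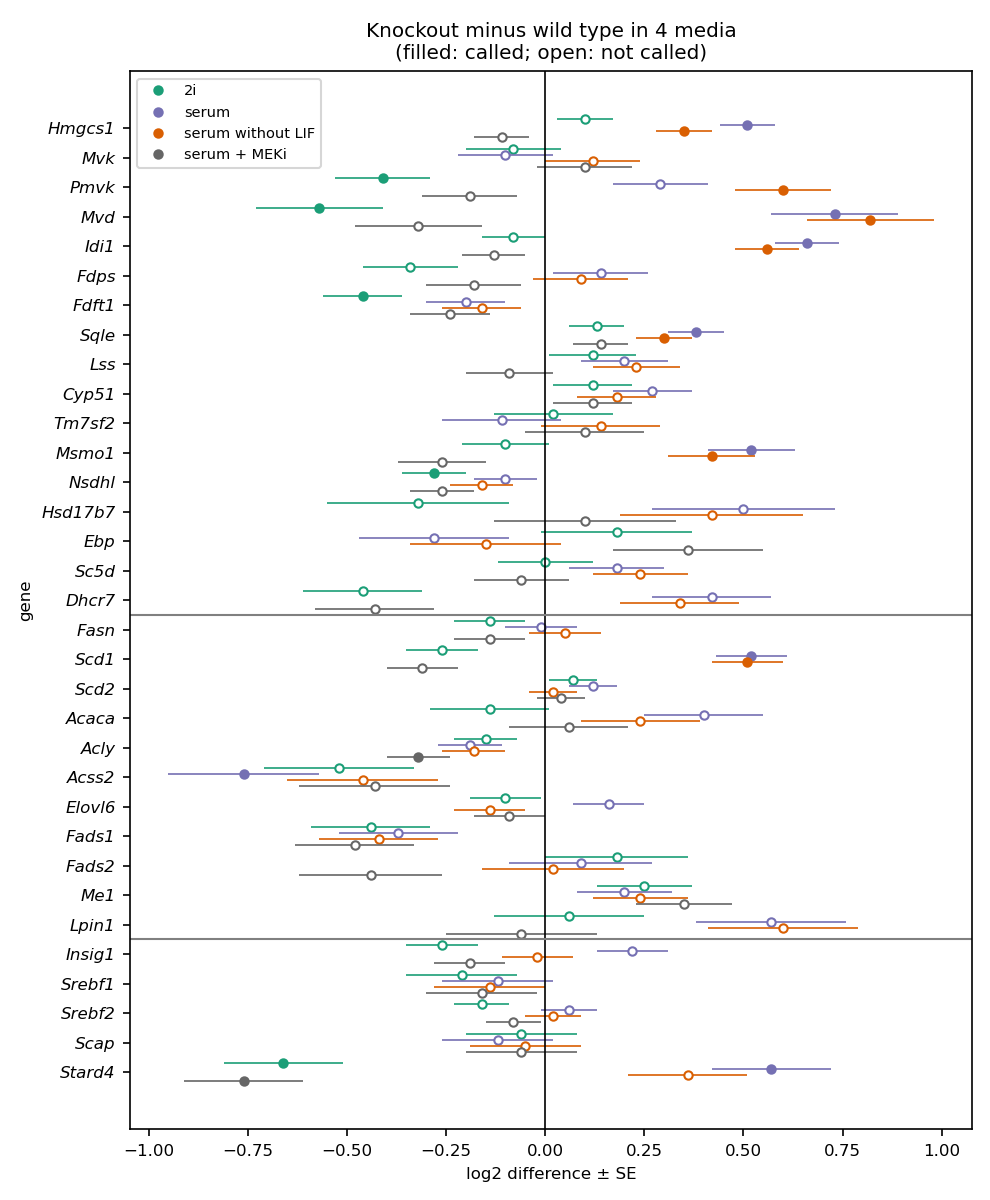
Log2 difference of labelled knockout minus wild type with its standard error in 4 media for the 33 genes, with filled points for called genes and open points for the rest. Mvd, Idi1, Scd1, Hmgcs1 and Stard4 lie above 0 in serum, and Mvd and Stard4 lie below 0 in 2i and in serum with MEK inhibitor.

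The difference between genotype differences was tested as an interaction. Serum minus 2i had 9 of 33 genes higher and 0 lower (27.3%; all genes 2.97%, 1.36% higher). These were Mvd (1.30, SE 0.23, adjusted p = 0.00397), Stard4 (1.24), Dhcr7 (0.89), Scd1 (0.78), Idi1 (0.74), Pmvk (0.70), Msmo1 (0.62), Insig1 (0.49) and Hmgcs1 (0.42). Of them 6 are sterol enzymes and 1 is a fatty acid gene. Dhcr7 and Insig1 were called in neither medium alone: Dhcr7 stood at -0.46 in 2i and 0.42 in serum, and Insig1 at -0.26 and 0.22. Mvd, Idi1, Scd1 and Stard4 held whichever array was left out. The count was 4 without replicate 1 of labelled knockout in 2i, replicate 2 of labelled knockout in serum or replicate 1 of wild type in serum, and 5 without replicate 1 of wild type in 2i, replicate 1 of labelled knockout in serum or replicate 2 of wild type in serum. Each genotype difference lies within 1 spike-in set, and the interaction sets the difference in 1 set against that in the other.

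Serum with MEK inhibitor minus serum had 0 higher and 4 lower (12.1%; all genes 0.231%, 0.0934% lower): Stard4 (-1.33), Scd1 (-0.83), Idi1 (-0.79) and Hmgcs1 (-0.62). This interaction, too, sets the genotype difference in 1 spike-in set against that in the other. Hmgcs1, Idi1 and Scd1 held whichever array was left out. With the replicate number within each line as a block, 9 of the 33 were called (all genes 3.15%). The Stard4 call ended without replicate 1 of labelled knockout in serum (-1.27) or replicate 1 of wild type with inhibitor (-1.24). Serum without LIF minus serum called 0 of the 33 and 0.0% of all genes in limma. At an unadjusted p under 0.05 it had 1 of the 33 and 654 of all genes (3.59%).

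AGP14, the knockout with the Prdm14 transgene, was compared with the other genotypes in serum and in serum without LIF within 1 spike-in set. Against labelled knockout, 1 gene was higher and 6 lower in serum (21.2%; all genes 10.5%, 5.23% higher and 5.28% lower), and 1 higher and 7 lower without LIF (24.2%; all genes 13.3%, 8.09% higher and 5.22% lower). The medians were -0.17 and -0.17. Idi1 was lower by 0.35 and 0.36, Sqle by 0.27 and 0.26, Cyp51, the lanosterol demethylase, by 0.52 and 0.34, Dhcr7 by 0.50 and 0.47, and Scd2 by 0.29 and 0.30. Ebp went the other way. It read 8.90 and 9.02 on AGP14 arrays against 8.07 and 8.07 in labelled knockout in serum, and 8.83 and 9.02 against 7.58 and 7.72 without LIF. It was higher by 0.89 (SE 0.19, adjusted p = 0.00446) and 1.27 (adjusted p = 0.000130), or 1.85-fold and 2.42-fold, with arrays that did not overlap. Ebp was also higher than in wild type without LIF, by 1.12, where wild type read 7.59 and 8.01.

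Against wild type, AGP14 had 2 genes higher and 1 lower in serum (9.09%; all genes 6.96%, 2.35% higher and 4.61% lower), and 3 higher and 3 lower without LIF (18.2%; all genes 10.7%, 6.34% higher and 4.33% lower). Of the 9096 genes above the median level, fitted alone, 1389 were called in serum and 2041 without LIF. Hmgcs1 and Idi1 were higher in serum by 0.37 and 0.31, and the levels of AGP14 for Idi1, 10.08 and 9.97, lay between wild type (9.72 and 9.71) and labelled knockout (10.41 and 10.34). Lpin1, a phosphatidate phosphatase, was higher without LIF by 1.04. Feeder markers were higher in AGP14 than in wild type without LIF for 13 of 24 (median 0.76), and 4 in serum (0.50). The counts moved when 1 array was left out, and so did the counts of all genes. Against wild type in serum the count was 1 without AGP14 replicate 1, 0 without AGP14 replicate 2 or wild-type replicate 1 and 6 without wild-type replicate 2. Without LIF it was 3 without either AGP14 replicate and 2 without wild-type replicate 1. Against labelled knockout in serum the count was 4 without AGP14 replicate 1 or labelled knockout replicate 2, 2 without AGP14 replicate 2 and 3 without labelled knockout replicate 1. Without LIF it was 3 without AGP14 replicate 2 and 4 without either labelled knockout replicate. The Ebp call against labelled knockout in serum ended without AGP14 replicate 2 (0.83).

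In 2i, where AGP14 and the other genotypes lie in different spike-in sets, AGP14 had 0 genes higher and 14 lower than wild type (42.4%; all genes 25.4%, 18.2% lower), and 2 higher and 10 lower than labelled knockout (36.4%; all genes 24.2%, 16.0% lower). Elovl6 read 10.38 and 10.19 on AGP14 arrays and 11.48 and 11.38 in wild type, lower by 1.14, and Scd1 was lower by 1.14. Against labelled knockout the same genes were lower by 1.05 and 0.88. Feeder markers were lower as well, 10 of 24 against either genotype, with 1 higher against wild type.

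EpiLC of day 2 and wild type in 2i lie in 1 spike-in set. The genes moved both ways, with 7 higher and 13 lower (60.6%; all genes 38.3%, 17.2% higher and 21.1% lower) and a median of -0.12 against -0.02 over all genes. The sterol arm had 5 higher and 5 lower, the fatty acid arm 1 higher and 6 lower. Lss read 9.47 and 9.48 in EpiLC against a mean of 7.96 ± 0.06 (SD, n = 2) in wild type, a rise of 1.52 (SE 0.11, adjusted p = 2.45e-09) or 2.86-fold. Mvd read 9.42 and 9.46 against 8.39 and 8.19, a rise of 1.15, and Acaca read 9.91 and 9.91 against 9.03 and 8.66, a rise of 1.06. These arrays did not overlap. Pmvk rose by 0.74, Stard4 by 0.67, Fdps by 0.60 and Idi1 by 0.58.

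Among the genes lower in EpiLC, Ebp moved most. It read 7.87 and 7.85 against 9.49 and 10.10, a fall of 1.94 (SE 0.19, adjusted p = 1.29e-07) or 3.82-fold. Cyp51, Nsdhl and Tm7sf2, which act between lanosterol and Ebp, fell by 0.44, 0.45 and 0.58. Msmo1 and Hsd17b7, which act there too, were not called, with means of 11.70 and 7.63 in EpiLC against 11.68 and 7.14 in wild type. In the fatty acid arm Scd1 fell by 0.84, Me1 by 0.76, Fads1 by 0.72, Lpin1 by 0.70, Scd2 by 0.57 and Elovl6 by 0.57. A further Scd1 probe set gave 0.59, the opposite direction. Hmgcs1 fell by 0.34, Srebf2 by 0.40 and Insig1 by 0.48. Feeder markers were lower for 19 of 24 (median -2.83), and Col1a1, a fibroblast collagen, read 2.74 ± 0.42 in EpiLC against 9.70 ± 0.16 (mean ± SD, n = 2), and the part of feeder RNA in these falls was not tested.

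Between day 2 and day 3 of EpiLC, 0 genes rose and 13 fell (39.4%; all genes 17.6%, 9.69% lower), with 8 of 17 in the sterol arm. Of the 9096 genes above the median level, fitted alone, 3147 were called in either direction. Stard4 read 9.96 and 9.92 at day 2 and 8.83 and 8.73 at day 3, a fall of 1.16 (SE 0.15, adjusted p = 3.11e-05). Idi1 read 11.11 and 11.18 and then 10.57 and 10.51, and fell by 0.60. Mvk fell by 0.78, Elovl6 by 0.67, Nsdhl by 0.61, Msmo1 by 0.56, Sqle by 0.51 and Fasn by 0.46. Lss, Mvd and Acaca, which had risen by day 2, were not called, with means of 9.22, 9.00 and 9.68 at day 3.

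Other genes of these pathways, from a list that does not hold the 33, were also counted. Of 8 measured sterol pathway genes of 13 listed, 3 fell in each of the 3 comparisons with 2i within a spike-in set and 0 rose (37.5%, against 7.06%, 6.59% and 8.22% of all genes lower). They were Npc2 (-0.77, -0.90 and -0.78), which hands cholesterol out of lysosomes, Aacs (-0.55, -0.92 and -0.90), which activates acetoacetate for lipid synthesis, and Erg28 (-0.39, -0.52 and -0.70), a scaffold of the sterol demethylating enzymes. The medians of the 8 genes were -0.06, -0.17 and -0.10. Of 21 measured fatty acid pathway genes of 22 listed, 7, 6 and 7 fell and 0, 1 and 1 rose, with medians of -0.14, -0.15 and -0.08. The medians of all genes were -0.02, 0.0 and 0.0. In labelled knockout against wild type in serum 0 of the 8 and 0 of the 21 were called, where 4.17% of all genes were called.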

How the data were processed

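Expression was measured on 26 Affymetrix arrays. The deposited table holds log2-scale values per probe set, while no source used here gives their background correction or normalization. The median of an array was 4.86 to 5.01. Of 45100 probe sets, 34944 had 1 gene symbol in the platform annotation, 932 several and 9160 none, and 64 were controls. For 24 of the 33 genes more than 1 probe set was available. The highest-mean probe set was used.

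A model with 1 coefficient per group was fitted to all arrays in limma 3.58.1 (R 4.3.3) with an intensity trend (13 residual and 5.05 prior degrees of freedom). Two-sided p-values had Benjamini-Hochberg adjustment over 18193 genes, and a fold is 2 raised to the size of the difference. Same-numbered arrays of 1 line in different media deviated together in wild type (r 0.106 to 0.216 over 6 pairs), in labelled knockout at 0.099 to 0.201 over 6 pairs and in AGP14 at 0.014 to 0.071 over 3. By a limit of 0.1 for every pair the numbers pair arrays in wild type, and labelled knockout misses the limit only by its lowest pair, 0.099. Values with the block are given where they move a count. The procedure was tested on simulated data. Python 3.11.15 with pandas 2.3.3 served for tables. Any of the 34 genes could be named in any comparison, and from other lists up to 3 genes with the smallest p. Members and lists were chosen with earlier results of these data known. Alternatives were quantile normalization, the mean over probe sets, no trend, dim genes left out, the replicate number as a block (across all lines or within each line), 1 array left out and, added after the data were seen, only the arrays of 1 spike-in set.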

Additional observations from a re-analysis of the deposited data

Results flagged for a closer look

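The genotype difference (labelled knockout minus wild type) differed between media by an interaction test in limma for 9 genes in serum minus 2i: Mvd 1.30 (adjusted p = 0.00397), Stard4 1.24 (0.00447), Dhcr7 0.89 (0.0286), Scd1 0.78 (0.00327), Idi1 0.74 (0.00215), Pmvk 0.70 (0.0356), Msmo1 0.62 (0.0416), Insig1 0.49 (0.0352) and Hmgcs1 0.42 (0.0308). It differed by the same test for 4 genes in serum with MEK inhibitor minus serum: Stard4 -1.33 (0.00976), Scd1 -0.83 (0.00756), Idi1 -0.79 (0.00363) and Hmgcs1 -0.62 (0.00756). Each of these interactions sets the genotype difference in 1 spike-in set against that in the other, so medium and set cannot be told apart there.

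Other differences had arrays that lay on opposite sides in a pair of conditions, and the difference between the conditions was not tested. Labelled knockout minus wild type was -0.41 in 2i and 0.60 in serum without LIF for Pmvk, -0.57 and 0.82 for Mvd, -0.26 and 0.51 for Scd1, and -0.66 and 0.36 for Stard4. It was 0.35 without LIF and -0.11 with MEK inhibitor for Hmgcs1, 0.42 and -0.26 for Msmo1, 0.51 and -0.31 for Scd1, and 0.36 and -0.76 for Stard4. LIF withdrawal gave -0.13 for Elovl6 in labelled knockout and 0.34 in AGP14. Serum with MEK inhibitor against 2i gave 0.12 for Fads2, a fatty acid desaturase, in wild type and -0.49 in labelled knockout.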

How the results depend on the processing

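Counts of called genes among the 33 kept within 1.5 times of their values for most settings. In labelled knockout against wild type in 2i the count was 3 without an intensity trend, 8 with dim genes left out and 0 with only the arrays of the spike-in set, and with MEK inhibitor it was 1 with the mean over probe sets, 1 without trend, 4 with dim genes left out and 0 with only the set. In AGP14 against labelled knockout without trend it was 4 in serum and 5 without LIF. In AGP14 against wild type in serum it was 7 with quantile normalization, 1 with the mean over probe sets, 1 without trend, 6 with dim genes left out and 6 with only the set. For LIF withdrawal it was 1 with the mean over probe sets and 4 with only the set in wild type, 0 without trend and 2 with only the set in labelled knockout, and 0 with quantile normalization or without trend in AGP14. The interaction of serum minus 2i gave 4 without trend. Of 286 called pairs of gene and comparison, 57 lost the call and 4 turned sign with the mean over probe sets: Scap (-0.06) in serum against 2i and, with MEK inhibitor in serum, Lss (0.01) and Scap (0.01) in wild type and Scap (0.05) in labelled knockout. Interactions aside, 201 of these pairs had a further probe set, and in 45 of them at least 1 went the opposite way. In 14 pairs such an opposite probe set had a mean level of 5 or more. Among values that were not called, the sign turned in serum with MEK inhibitor against 2i for Acly with quantile normalization (0.02, wild type) and, with the mean over probe sets, for Acly (0.01, labelled knockout), Scap (0.16, labelled knockout) and Fads2 (-0.72, wild type).

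Deviations of same-numbered arrays of labelled knockout and wild type in 1 medium correlated at -0.031 to -0.005, so a number is not shared between these lines. With the replicate block, the count in AGP14 against wild type in serum was 5. With the line as a replicate block, LIF withdrawal gave 10, 5 and 4 in wild type, labelled knockout and AGP14, and the interaction of serum with MEK inhibitor minus serum gave 9. No call of the 286 was lost with the replicate block. The cause of these changes was not tested.

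Leaving out 1 array at a time gave these ranges. Labelled knockout against wild type gave 0 to 8 in 2i, 4 to 5 in serum, 3 to 5 without LIF and 0 to 3 with MEK inhibitor. AGP14 against labelled knockout gave 9 to 11 in 2i, 2 to 4 in serum and 3 to 6 without LIF, and against wild type 11 to 15, 0 to 6 and 2 to 6. Serum against 2i gave 26 to 28 in wild type, 22 to 26 in labelled knockout and 19 to 26 in AGP14, and serum with MEK inhibitor against 2i gave 24 to 27 and 20 to 27. MEK inhibitor in serum gave 11 to 13 and 10 to 15, and LIF withdrawal 1 to 2, 0 to 1 and 0 to 0. EpiLC gave 19 to 20 at day 2 and 9 to 11 for day 3 against day 2. The interactions gave 4 to 9 for serum minus 2i, 3 to 6 for MEK inhibitor and 0 to 0 for LIF. Leaving out 1 array also turned the sign of 3 values that were not called: Acly in serum with MEK inhibitor against 2i in wild type ranged from -0.13 to 0.11, and in AGP14 serum against 2i Acaca ranged from -0.06 to 0.27 and Scap from -0.04 to 0.15. The number of arrays, 2 a group, limits what small differences can be told.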

Other observations

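Genes of fatty acid oxidation were also measured, 11 of 12 listed. In labelled knockout against wild type in serum 3 of them fell and 0 rose in limma (27.3%), and 2.79% of all genes were lower. Cpt1a, which brings long-chain fatty acids into mitochondria, fell by 1.08 in serum (SE 0.17, adjusted p = 0.00125, limma), by 1.04 without LIF and by 0.79 with MEK inhibitor. In 2i the mean level of the 11 genes was 8.51 in labelled knockout and 8.42 in wild type. In EpiLC of day 2 against wild type in 2i Cpt1a fell by 3.15 (adjusted p = 5.91e-11, limma) and Slc25a20, the carnitine carrier of the same route, by 1.93. There 21.1% of all genes were called lower, and the part of feeder RNA was not tested.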
